A study of Mus musculus with 12 samples.

Results

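Mature miRNAs of the miR-193, miR-365 and miR-455 families, which are known for their part in the choice between muscle and brown fat, were followed in mouse quadriceps from birth to adulthood. They were taken from the count table by their names, mmu-miR-193a-3p, mmu-miR-193a-5p, mmu-miR-193b-3p, mmu-miR-365-3p, mmu-miR-455-3p and mmu-miR-455-5p, and make up 6 of its 1966 mature miRNAs. All 6 were among the 809 that passed the filter on low counts. The quadriceps came from wild-type C57BL/6J mice in their first 2 weeks of life (P1, P5 and P14, named by the postnatal day) and as adults (P90). No treatment is named for any group, and each age was represented by 3 libraries, 12 in all. The series was made to place miRNAs that respond to loss of the splicing factor Mbnl1 in the course of normal muscle growth. By the study's methods, 3 mice were used at each age, so the replicates are animals.

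A mature miRNA is cut from 1 arm of an RNA hairpin, the 5′ arm (5p) or the 3′ arm (3p), and represses the mRNAs that pair with its seed, the bases close to its 5′ end. Brown adipocytes and skeletal muscle fibres share progenitors that have expressed Myf5. In cell culture, miR-193b and miR-365 favour brown adipocyte differentiation, and forced miR-193b can turn myoblasts towards that fate by repressing Runx1t1. MiR-455 is induced by cold and BMP7 in fat and favours brown adipogenesis, and it is also known from cartilage, where its host gene Col27a1, which encodes a fibrillar collagen, is expressed.

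The mature sequences show which of these miRNAs can share targets and which rows of the table can share reads. They were taken from RefSeq on GRCm38.p6, where all 6 and the 3 other arms of their hairpins were found. Each is printed 5′ to 3′ with the seed, bases 2 to 8, in capitals.
miR-193a-3p: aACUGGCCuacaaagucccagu
miR-193b-3p: aACUGGCCcacaaagucccgcu
miR-193a-5p: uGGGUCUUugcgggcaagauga
miR-193b-5p: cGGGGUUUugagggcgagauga
miR-365-3p: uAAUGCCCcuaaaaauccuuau
miR-365-1-5p: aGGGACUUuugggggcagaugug
miR-365-2-5p: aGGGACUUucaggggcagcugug
miR-455-3p: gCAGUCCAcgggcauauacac
miR-455-5p: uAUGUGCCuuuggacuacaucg

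The 3p arms of miR-193a and miR-193b had the same seed, which no other of the 1679 mature names in the RefSeq table carried. They were identical at 19 of 22 positions and differed by U9C, A20G and G21C, with positions counted from the 5′ end and the miR-193a base given first. Their 5p arms were less alike (17 of 22 positions), and U5G and C6U lay within the seed. Both 5p arms of miR-365 had 1 seed, and they were identical at 20 of 23 positions. MiR-455-5p shared its seed with miR-5129-3p, which had between 0 and 19 counts per library, and the remaining members shared theirs with no other name.

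The genes are arranged as 2 paired loci and a single one, all on the + strand. Mir193a (chr11:79711969-79712034) was 14365 bases from Mir365-2 (chr11:79726400-79726511), and Mir193b (chr16:13449523-13449601) was 4238 bases from Mir365-1 (chr16:13453840-13453926). Mir193b and Mir365-1 lay in introns of the lncRNA gene Gm53058 on the same strand and of Gm15738 on the opposite strand. Mir365-2 lay in introns of the lncRNA genes Gm10387 and Gm74356 on the same strand and Gm74353 on the opposite strand, whereas Mir193a was intergenic. Mir455 (chr4:63256851-63256932) lay in an intron of Col27a1 on the same strand. None of the 5 hairpins overlapped another annotated miRNA gene. The hairpins of both pairs are given with the mature arms in capitals, to show that Mir365-1 and Mir365-2 hold the same 3p arm.
Mir193a: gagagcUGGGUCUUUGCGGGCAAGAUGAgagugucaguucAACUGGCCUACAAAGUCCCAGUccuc
Mir193b: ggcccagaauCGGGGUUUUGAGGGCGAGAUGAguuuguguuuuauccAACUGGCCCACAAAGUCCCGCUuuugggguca
Mir365-1: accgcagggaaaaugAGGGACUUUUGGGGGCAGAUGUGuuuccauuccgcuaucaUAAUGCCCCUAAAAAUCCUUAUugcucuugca
Mir365-2: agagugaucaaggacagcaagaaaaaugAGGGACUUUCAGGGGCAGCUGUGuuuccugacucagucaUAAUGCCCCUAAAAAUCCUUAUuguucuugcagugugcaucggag
The single miR-365-3p row of the table therefore stands for both loci, and only the 5p arms can tell them apart. How reads that align to both loci were counted is not given in the sources used here.

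Library totals ranged from 20363495 to 53126984 counts, with the P90 libraries the deepest (43776307 to 53126984). The muscle-specific miR-1a-3p took between 16.0% and 56.8% of the counts of a library, and none of the 4 muscle fibre markers was at 0 at any age. Counts were scaled with TMM factors, which rest on the assumption that most miRNAs are alike between libraries. These factors were 0.247 to 0.384 at P90 and 1.24 to 1.72 at the other ages, so the level of every miRNA at P90 relative to a younger age depends on the scaling. For this reason, CPM of the library total are given beside normalized CPM, where CPM are counts scaled to a common library size, and fold changes at P90 are also given under other scalings. In bulk muscle, fewer cells of a type and less RNA per cell cannot be told apart.

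Across the 4 ages, the 6 miRNAs split by family. With TMM scaling, the miR-193 and miR-365 members were higher in adult than in newborn muscle, and both arms of miR-455 were lower (edgeR quasi-likelihood test with Benjamini-Hochberg adjustment over the 809 miRNAs). All 6 differed between the ages, where 72.4% of the miRNAs tested did. For P90 versus P1, all 6 were called, 4 higher and 2 lower, with a median log2FC of 2.46. With library totals 3 were called, miR-193a-5p as higher and both arms of miR-455 as lower, and with upper-quartile factors miR-455-3p was not called (0.38, edgeR Padj 0.175). By comparison, 66.4% of all miRNAs tested were called in this comparison, 25.2% higher and 41.2% lower, with a median of −0.72.

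**Figure D1:**
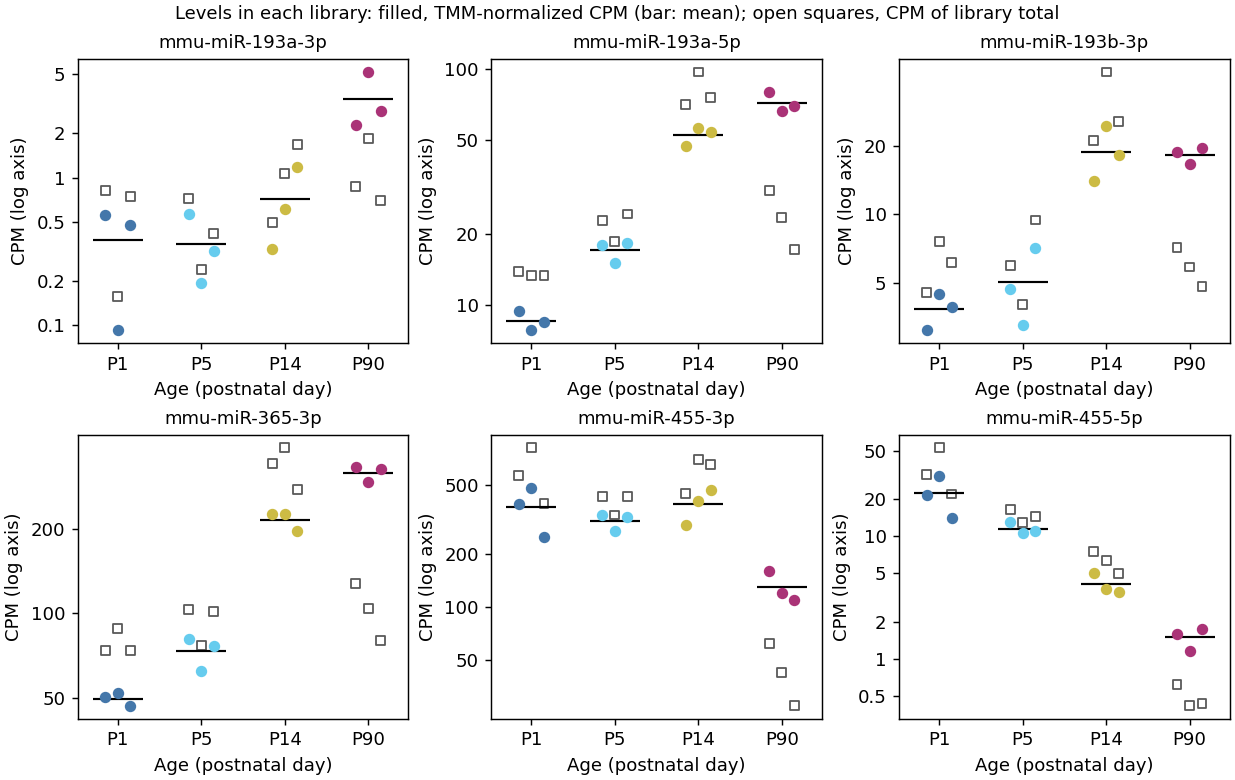
Level of each miRNA in each of the 12 libraries (y axis, CPM on a log axis) at P1, P5, P14 and P90 (x axis). Filled points are normalized CPM, bars their means, and open squares CPM of the library total. MiR-193a-5p and miR-365-3p are ordered by age with no overlap on the normalized scale, whereas on library totals their P90 values lie below those of P14. The level of miR-455-5p is lower at each age than at the one before on both scales.

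MiR-365-3p was the most abundant member in adult muscle. Its normalized CPM were 50.5, 52.0 and 46.9 in the P1 libraries, 80.9, 62.2 and 76.6 at P5, 225, 225 and 196 at P14, and 331, 293 and 325 at P90. No library of one age overlapped with those of another. The mean rose from 49.8 ± 2.61 at P1 to 316 ± 20.5 at P90 (SD, n = 3 libraries). This gave a log2FC of 2.67 (SE 0.15, edgeR Padj 1.5e-10), and its rank among the 1966 miRNAs by mean CPM moved from 237 to 92. The larger part of this difference lay between P5 and P14, where the log2FC was 1.56 (SE 0.14, Padj 5.9e-07). From P14 to P90 the log2FC was 0.55 (SE 0.14, Padj 0.00322).

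The direction of that last step depended on the processing. Scaled by the library total alone, miR-365-3p stood at 340, 388 and 275 at P14 and at 127, 104 and 80.2 CPM at P90, and the log2FC was −1.69. It was also negative, at −0.95, when a trend with GC content was removed within each library. MiR-365-3p has the lowest GC content of the 6 members (31.8%). The slope of that trend was 0.377 to 0.561 log2 units per 10 percentage points of GC in the P14 libraries and −0.591 to −0.380 in the P90 libraries. For P90 versus P1, the log2FC with library totals was 0.40, and the call was lost (Padj 0.0853).

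The 5p arms of the miR-365 hairpins tell the 2 loci apart. MiR-365-2-5p, from chromosome 11, had 77, 102 and 122 counts at P1, 160, 161 and 142 at P5, 447, 545 and 436 at P14, and 200, 150 and 102 at P90. MiR-365-1-5p, from chromosome 16, had 3 to 17, 6 to 39, 44 to 171 and 4 to 28 counts at these ages. The chromosome 11 arm was the higher one in 12 of 12 libraries. Both rose from P5 to P14, by a log2FC of 1.88 (SE 0.22, edgeR Padj 7.2e-06) for miR-365-2-5p and 2.73 (SE 0.74, Padj 0.00718) for miR-365-1-5p. From P14 to P90 they went against miR-365-3p (0.55) with TMM factors. The log2FC was −0.53 (SE 0.22, Padj 0.0491) for miR-365-2-5p and −1.32 (SE 0.72, Padj 0.127) for miR-365-1-5p. These opposite signs depended on the processing. For miR-365-3p and miR-365-2-5p, the values were −1.69 and −2.74 with library totals and 2.12 and 1.05 with upper-quartile factors. They were −0.95 and 0.67 with the GC trend removed. The call of miR-365-2-5p in that step was lost in 16 of 20 alternatives, and its sign changed in 2. The ratio of the 2 arms did not differ between ages beyond the spread of the libraries (exact permutation test over 15400 partitions, P = 0.703).

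MiR-193a-5p followed a similar course at a lower level. Its normalized CPM were 9.45, 7.80 and 8.46 at P1, 17.9, 15.03 and 18.3 at P5, 46.9, 56.1 and 53.8 at P14, and 79.6, 66.01 and 69.5 at P90. As for miR-365-3p, libraries of different ages did not overlap. It was 8.37-fold higher at P90 than at P1 (log2FC 3.06, SE 0.17, edgeR Padj 1.5e-10), and this call held under every alternative tried, with a log2FC of 0.82 for library totals as the smallest value. The P90 versus P14 difference was less certain. It was 0.46 (SE 0.16, Padj 0.0214) with TMM factors and −1.77 with library totals, and the call was lost without P14 replicate 1 (0.42) or without P90 replicate 1 (0.39).

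MiR-193b-3p, the arm studied in brown fat, was at 3.10, 4.48 and 3.93 normalized CPM at P1, 4.68, 3.26 and 7.14 at P5, 14.0, 24.4 and 18.2 at P14, and 18.7, 16.5 and 19.6 at P90. The libraries thus formed a low pair of ages, P1 and P5, which overlapped, and a high pair, P14 and P90, which also overlapped. It rose between P5 and P14 by a log2FC of 1.91 (SE 0.28, edgeR Padj 5.4e-05), with no call before (0.39, SE 0.28, Padj 0.591). For P90 versus P14 its log2FC was −0.05 (SE 0.27, Padj 0.903), but other settings called it in either direction, at −2.31 with library totals (Padj 1.1e-05), 1.52 with upper-quartile factors (Padj 5.3e-05) and 1.02 with the GC trend removed (Padj 0.00363). For P90 versus P1 its log2FC was 2.25 (SE 0.29, Padj 3.8e-06), and with library totals it was −0.03. MiR-193b-5p had a log2FC of 2.44 (SE 0.46, Padj 5.2e-04) for P14 versus P5.

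MiR-193a-3p, which carries the same seed as miR-193b-3p, was the scarcest member. It had 21, 4 and 20 counts in the P1 libraries, 22, 8 and 14 at P5, 12, 25 and 34 at P14, and 38, 98 and 34 at P90. On the normalized scale its P90 libraries (2.26 to 5.20 CPM) lay above those of all younger ages (0.0923 to 1.19 CPM). The log2FC for P90 versus P1 was 3.19 (SE 0.67, edgeR Padj 5.4e-04). With library totals it was 0.99, and the call was lost (Padj 0.184). For P90 versus P14 the values were 2.28 (SE 0.64, Padj 0.00632) and 0.09.

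The 2 paralogous hairpins differed in the arm that was counted most. For miR-193a, the 5p arm exceeded the 3p arm in 12 of 12 libraries, by 12.6 to 136 times. For miR-193b, the 3p arm exceeded the 5p arm in 12 of 12 libraries, by 3.08 to 22.9 times. Of the pair that shares the seed ACUGGCC, miR-193b-3p was the more abundant in every library, by 3.17 to 43.2 times. The test over all 4 ages found no difference in these ratios, in which 0.5 was added to each count, beyond the spread of the libraries. The exact permutation P values were 0.127 for miR-193a-5p over miR-193a-3p, 0.259 for miR-193b-3p over miR-193b-5p and 0.131 for miR-193b-3p over miR-193a-3p. The ranges of P14 and P90 were nevertheless separate, a pair of ages chosen after the values were seen and not tested. They were 44.6 to 136 and 12.6 to 34.8 for the arms of miR-193a, 3.57 to 4.18 and 6.12 to 7.58 for the arms of miR-193b, and 15.09 to 40.6 and 3.17 to 8.17 for miR-193b-3p over miR-193a-3p. The ratio of miR-365-3p, whose single row stands for both loci, to miR-193b-3p lay between 9.21 and 19.0 in all libraries (exact permutation test, P = 0.233). It was not adjusted for the GC trend, and GC content was 31.8% for miR-365-3p and 59.1% for miR-193b-3p. With that trend removed, the log2FC for P90 versus P14 was −0.95 for miR-365-3p and 1.02 for miR-193b-3p.

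MiR-455-3p was the most abundant member at P1, P5 and P14 and, like miR-193a-3p, was not called at either step before P14. Its normalized CPM were 386, 480 and 250 at P1, 335, 272 and 326 at P5, 295, 405 and 465 at P14, and 162, 120 and 111 at P90. The 3 younger ages overlapped, and every adult library was below every younger one. It fell by a log2FC of −1.57 (SE 0.23, edgeR Padj 2.7e-05) from P14 to P90 and by −1.51 (SE 0.23, Padj 3.1e-05) from P1 to P90. Upper-quartile scaling, which raised the median of all miRNAs at P90 versus P1 to 1.177, gave values of 0.02 and 0.38. With library totals they were −3.77 and −3.75.

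MiR-455-5p, from the other arm of the same hairpin, decreased at each step. It stood at 21.9, 31.1 and 14.12 normalized CPM at P1, 12.97, 10.55 and 10.98 at P5, 4.98, 3.70 and 3.53 at P14, and 1.61, 1.17 and 1.75 at P90, the last from 21 to 27 counts. No 2 ages overlapped. At P90 it was 14.98-fold lower than at P1 (log2FC −3.91, SE 0.31, edgeR Padj 1.2e-08), a call that held under all 20 alternatives with values from −6.19 to −2.03. The steps were −0.96 from P1 to P5 (SE 0.26, Padj 0.0497), −1.50 from P5 to P14 (SE 0.27, Padj 3.2e-04) and −1.45 from P14 to P90 (SE 0.30, Padj 6.6e-04). With upper-quartile scaling the last of these was 0.12.

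The unequal course of the 2 arms of miR-455 did not depend on scaling, because a ratio of 2 counts of the same library cancels the library size. It does not cancel the GC trend, and GC content was 57.1% for miR-455-3p and 45.5% for miR-455-5p. With that trend removed, their log2FC values for P90 versus P1 were −1.01 and −4.04. For P90 versus P14 they were −0.71 and −1.68. The ratios below are of unadjusted counts. MiR-455-3p exceeded miR-455-5p by 15.4 to 17.7 times in the P1 libraries and by 25.8 to 29.6 times at P5. The excess was 59.1 to 131 times at P14 and 61.7 to 100 times at P90. P1, P5 and the 2 older ages formed separate ranges, while P14 and P90 overlapped. The ages differed (exact permutation test, P = 0.000909, adjusted to 0.00545 over the 6 ratios tested), with a mean log2 ratio 2.33 higher at P90 than at P1. Leaving out any library gave differences from 2.21 to 2.56.

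The counts of miR-365-3p per count of miR-455-3p, a pair chosen after its values were seen and therefore not tested, were 0.131, 0.108 and 0.188 at P1 and 0.242, 0.228 and 0.235 at P5. They were 0.763, 0.556 and 0.422 at P14 and 2.05, 2.45 and 2.94 at P90. Newborn libraries thus held several miR-455-3p counts for each miR-365-3p count, and adult libraries the reverse, with no overlap between any 2 ages. A ratio of counts cancels the library size but not the GC trend, and miR-455-3p has a GC content of 57.1% against 31.8% for miR-365-3p. With that trend removed, the log2FC for P90 versus P14 was −0.95 for miR-365-3p and −0.71 for miR-455-3p. The crossing between P14 and P90 was seen in unadjusted counts, and the ratio was not computed with the trend removed.

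**Figure D2:**
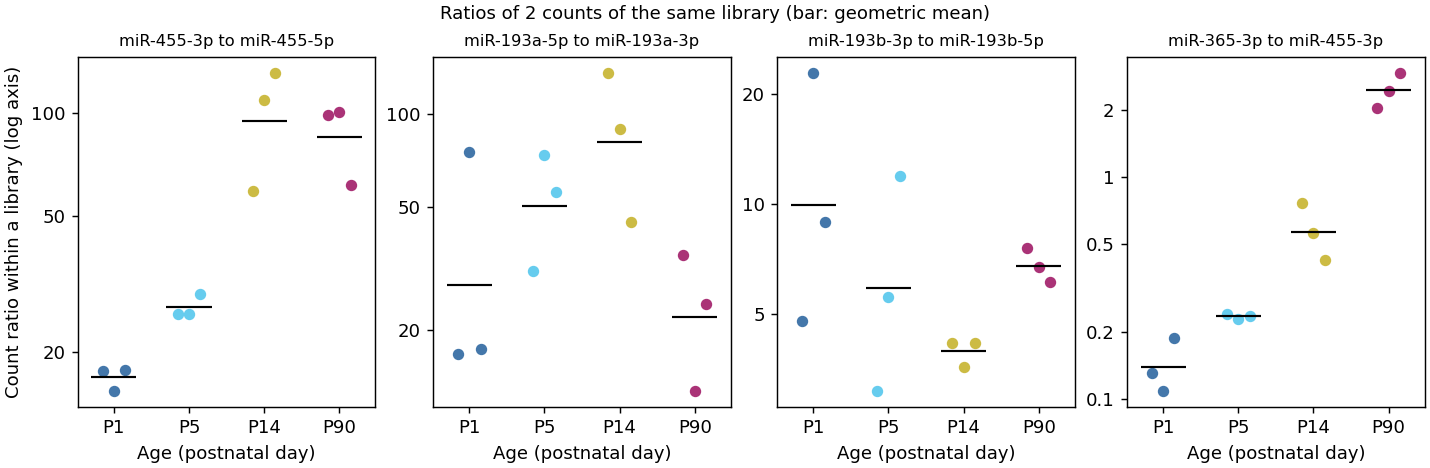
Ratios of 2 counts of the same library (y axis, log axis) at the 4 ages (x axis). Points are libraries and bars geometric means. The miR-455 arm ratio moves from 15.4 to 17.7 at P1 to 61.7 to 100 at P90, the miR-193a and miR-193b arm ratios overlap between P1 and P90, and miR-365-3p passes miR-455-3p between P14 and P90. The counts are not adjusted for the GC trend.

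The timing of the changes was examined step by step. From P1 to P5, 3 members were called, miR-193a-5p and miR-365-3p as higher and miR-455-5p as lower, and the median log2FC of the 6 was 0.16. This step had few calls in general, 4.45% of the miRNAs tested, 2.72% higher and 1.73% lower. The value for miR-193a-5p was 1.00 (SE 0.16, edgeR Padj 0.00222), a call lost with library totals (0.70, Padj 0.0878). The value for miR-365-3p was 0.56 (SE 0.14, Padj 0.0387). Its call was lost in 12 of 20 alternatives, among them leaving out any 1 of the P1 or P5 libraries. The call of miR-455-5p was lost in 11 of 20 alternatives, and without P1 replicate 2 its change was −0.67 (Padj 0.264).

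From P5 to P14, 4 members were called, miR-193a-5p, miR-193b-3p and miR-365-3p as higher and miR-455-5p as lower, and their calls held in each of the 20 alternatives. The median of the 6 was 1.27. In this step 44.4% of the miRNAs tested were called, 18.0% higher and 26.3% lower, with a median of −0.07. The remaining members had log2FC values of 0.98 (SE 0.65, edgeR Padj 0.253) for miR-193a-3p and 0.32 (SE 0.23, Padj 0.286) for miR-455-3p. The medians of all miRNAs tested lay between −0.13 and 0.22 under the 4 scalings, so the step from P5 to P14 was the one least affected by this choice among those with many calls.

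From P14 to P90, 5 members were called, 3 higher and 2 lower, with a median of 0.20, while 59.1% of the miRNAs tested were called, 22.4% higher and 36.7% lower. The median of all miRNAs tested was −0.55 with TMM factors, 0.99 with upper-quartile factors and −2.77 with library totals. Relative to the median with TMM factors, the miR-193 and miR-365 members lay above the typical miRNA, and both arms of miR-455 lay below it. A scaling factor moves all miRNAs of a library alike, so the other scalings could hardly change this order and add no support. With the GC trend removed, the log2FC was −0.95 for miR-365-3p and −0.71 for miR-455-3p.

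**Figure D3:**
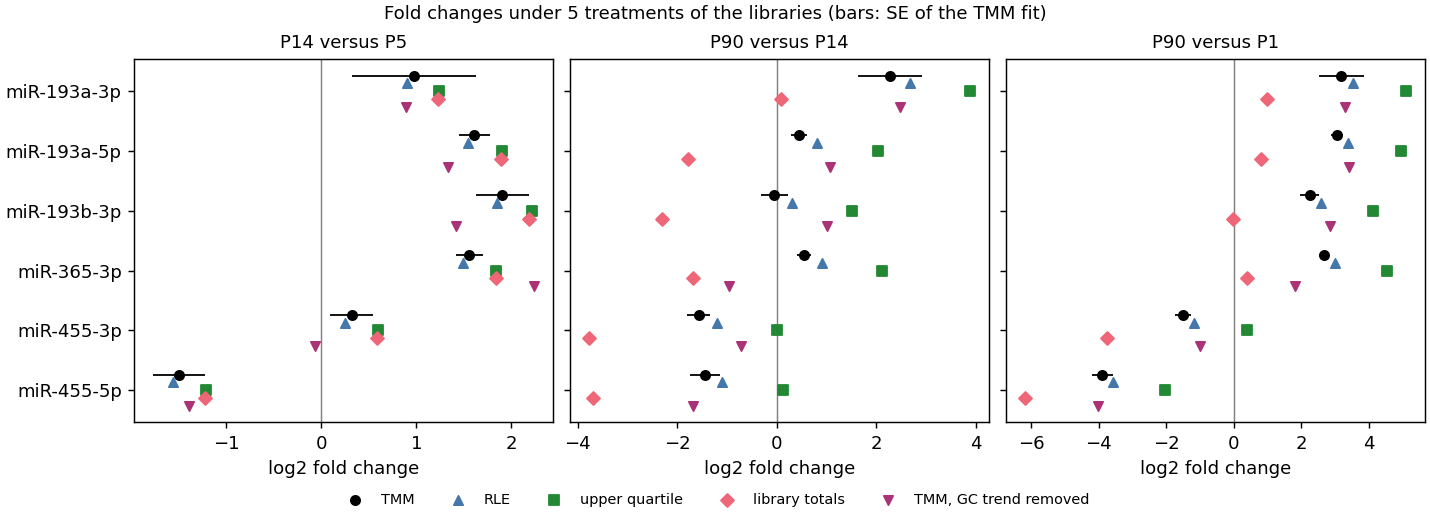
Log2 fold change (x axis) of each member (y axis) in 3 comparisons of ages, under TMM, RLE and upper-quartile factors, library totals, and TMM with the GC trend removed. Bars are the SE of the TMM fit. In the left panel miR-193a-5p, miR-193b-3p, miR-365-3p and miR-455-5p keep their side of 0, and in the middle panel miR-193a-5p moves from 2.03 with upper-quartile factors to −1.77 with library totals.

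Because the samples were whole muscle, markers of other cell types were examined beside these changes. MiR-140, a cartilage miRNA (2 of 2 arms measured, none at 0), varied widely within ages. Its summed normalized CPM were 2260, 5142 and 390 in P1 replicates 1 to 3, which is the order of miR-455-3p (386, 480 and 250) and of miR-455-5p (21.9, 31.1 and 14.12) in the same libraries. At P5 the sums were 895, 250 and 617, again in the order of both arms. At P14 they were 368, 350 and 1592, and the library with the highest sum had the highest miR-455-3p (465) and the lowest miR-455-5p (3.53). At P90 they were 570, 553 and 671, and the library with the highest sum had the lowest miR-455-3p (111) and the highest miR-455-5p (1.75). The order of miR-140 was thus that of both arms at P1 and P5, of neither arm at P14 and of miR-455-5p alone at P90. This comparison by library was chosen after the values were seen and was not tested.

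**Figure D4:**
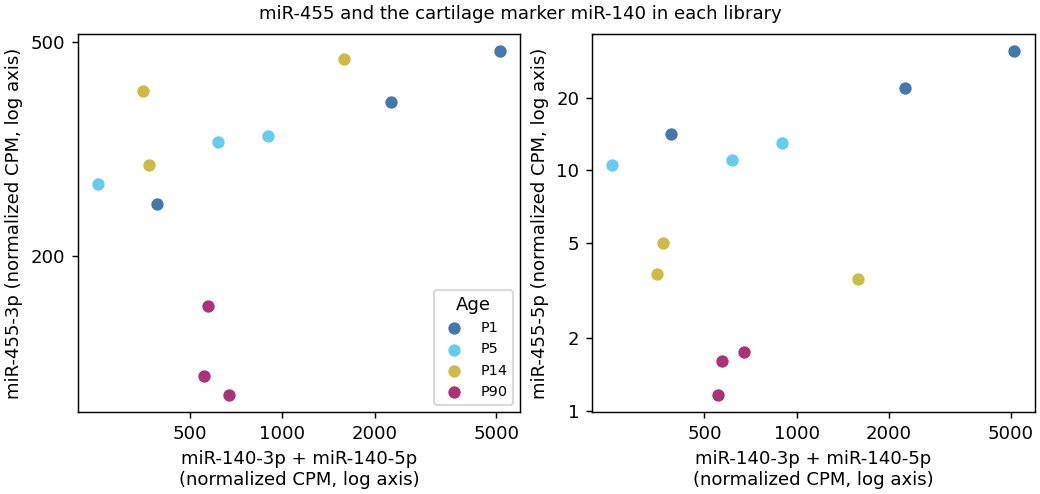
Normalized CPM of miR-455-3p (left) and miR-455-5p (right) against the summed normalized CPM of miR-140-3p and miR-140-5p, all axes logarithmic, with 1 point per library coloured by age. The P1 libraries spread along both axes in the same order. The P90 libraries lie lowest for both arms, with miR-140 sums of 553 to 671.

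The connective tissue markers miR-199a-3p, miR-199a-5p and miR-214-3p (3 of 3 measured, none at 0) decreased with miR-455-5p. They summed to 11122 to 13496 normalized CPM in newborns, then to 7903 to 10258 (P5), 4263 to 5720 (P14) and finally 1850 to 2635 (P90). Vessel wall markers (4 of 4 measured, none at 0) rose from 20517 to 24108 at P1 to 66721 to 86278 at P90. Their summed ranges at P5 (26200 to 32100) and P14 (28111 to 34229) overlapped. In that step miR-193a-5p, miR-193b-3p and miR-365-3p rose. The sum does not show single markers. Of this list, miR-145a-5p had a mean of 468 normalized CPM at P5 and 1098 at P14, and its other members were not given singly. Muscle fibre markers summed to 153218 to 206794 at P1 and 1450613 to 2370737 at P90, normalized sums above the library size being possible because of the small scaling factors. Blood cell markers (5 of 5 measured, none at 0) summed to 434 to 609 at P1 and 549 to 705 at P90. The part of these cell types in the changes of the 6 miRNAs was not tested.

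The miRNAs whose levels were most like those of each member were sought among 346 other miRNAs with a mean of at least 10 normalized CPM, by Pearson correlation of log2 normalized CPM over the 12 libraries. These libraries share age means and scaling, so the values are descriptive. For miR-365-3p they were miR-145a-5p (r = 0.993), a smooth muscle miRNA on the vessel wall list, miR-151-5p (0.988) and miR-378d (0.987). For miR-193a-5p they were miR-150-5p (0.993), a lymphocyte miRNA on the blood cell list, miR-378d (0.991) and miR-151-5p (0.985). MiR-193b-3p was closest to miR-1198-5p (0.966), miR-378a-5p (0.963) and miR-151-3p (0.958), and miR-193a-3p to miR-30a-5p (0.889), miR-29b-3p (0.885) and miR-194-5p (0.883). MiR-455-3p was closest to miR-99b-3p (0.935), miR-532-3p (0.933) and miR-652-3p (0.931). For miR-455-5p they were miR-376b-3p (0.981), from the imprinted Dlk1-Dio3 locus, and miR-199a-3p and miR-199b-3p (0.974 each). Among the members themselves, r was 0.988 between miR-193a-5p and miR-365-3p, 0.711 between the 2 arms of miR-455 and −0.954 between miR-455-5p and miR-193a-5p.

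Other miRNAs known to act on brown or beige fat were given by 2 lists, which were not chosen independently of these data. Of the 11 that promote it, 7 were higher and 1 was lower at P90 than at P1, and 3 were not called, with a median log2FC of 1.07. Of all miRNAs tested, 25.2% were higher and 41.2% lower in this comparison, with a median of −0.72. MiR-30c-5p (3.05, SE 0.16, edgeR Padj 8.2e-11) and miR-26a-5p (1.95, SE 0.11, Padj 2.7e-10) had the largest increases, and miR-32-5p fell (−1.36, SE 0.31, Padj 0.00119). Of the 11 that restrain it, 6 were higher and 1 was lower, and 4 were not called, with a median of 0.37. In this list miR-133a-3p, a muscle miRNA that represses Prdm16, rose by 3.48 (SE 0.20, Padj 2.0e-10) and miR-155-5p by 3.06 (SE 0.21, Padj 2.3e-09), while miR-494-3p fell (−4.88, SE 0.16, Padj 2.7e-13). With library totals the counts were 1 higher and 8 lower for the first list and 2 higher and 9 lower for the second.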

How the data were processed

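Small RNA from quadriceps of wild-type mice was sequenced at 4 ages, with 3 libraries per age, grouped by the sample titles. Libraries were made with a NEXTflex small RNA kit. Per the study's methods and the submitters' processing notes, the authors trimmed reads with cutadapt 1.18 to 10 to 35 nt, aligned them to GRCm38 with Bowtie2 2.4.1 and counted them with featureCounts 2.0.1 on miRBase. Strand and multiple mapping options are not given in the sources used here. The deposited values are raw counts per mature miRNA, 1966 in all, of which 424 had no count in any library.

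The 6 members, the gene lists and the tests were chosen with earlier results of these data known. Ages were compared with the quasi-likelihood test of edgeR 4.0.16 (R 4.3.3). After filterByExpr (809 miRNAs) and TMM scaling, 1 model with a mean per age was fitted to all 12 libraries. F-tests were 2-sided, Benjamini-Hochberg adjustment was made over all miRNAs tested, and Padj under 0.05 was a call. SE were derived from the F statistic. The fit was tested on simulated data. The 6 count ratios (0.5 added to each count) were compared between ages by their between-age sum of squares, over every partition of the libraries (exact permutation test). Named miRNAs were the members, the other arms of their hairpins, the 3 miRNAs most correlated with each member, and, per fat list, the 2 with the largest called change in each direction.

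Replicates of an age differed by a chi-square of 179 to 1195 per degree of freedom, so all 12 libraries were used. Counts were of reads rather than of marked molecules. GC content from RefSeq sequences was available for 85.0% of the miRNAs tested. Hairpin and mature positions came from RefSeq (GRCm38.p6) and host introns from GENCODE vM39, whose coordinates were not printed. Alternatives comprised RLE and upper-quartile factors, library totals, no filter, DESeq2 1.42.0, a replicate block, removal of the GC trend, fits to 2 ages, and leaving out each library.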

Additional observations from a re-analysis of the deposited data

How the results depend on the processing

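For the 6 members, 480 alternative values of 24 fold changes were computed, of which 428 kept their direction and their side of the threshold, 29 lost and 1 gained a call, and 22 changed sign. The number of members called for P5 versus P1 was 1 with library totals (miR-455-5p) and 1 with the replicate block (miR-193a-5p), and 1 to 3 when a library was left out. For P90 versus P1 it was 3 with library totals.

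Values at P90 depended on the scaling. For P90 versus P14, the log2FC of miR-193b-3p, −0.047 with TMM factors, was 0.31 with RLE factors, 1.52 with upper-quartile factors, −2.31 with library totals, 0.045 without the filter, 0.30 with DESeq2, 1.02 with the GC trend removed, 0.26 in a fit to the 2 ages and −0.19 to 0.19 when a library was left out. Upper-quartile factors gave 0.017 for miR-455-3p, 0.12 for miR-455-5p, 0.70 for miR-193b-5p, 0.29 for miR-365-1-5p and 1.05 for miR-365-2-5p, and, for P90 versus P1, 0.38 for miR-455-3p. Library totals gave −1.77 for miR-193a-5p and −1.69 for miR-365-3p, and, for P90 versus P1, −0.034 for miR-193b-3p, −0.044 for miR-365-1-5p and −0.28 for miR-365-2-5p. With the GC trend removed, P90 versus P14 was −0.95 for miR-365-3p, 0.22 for miR-193b-5p and 0.67 for miR-365-2-5p, and P14 versus P5 was −0.067 for miR-455-3p. The cause was not tested.

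Low counts limited other values. Leaving out a library moved P5 versus P1 between −0.55 and 0.30 for miR-193a-3p and between −0.39 and 1.13 for miR-365-1-5p. For P90 minus P1, the log2 ratio moved between −0.72 and 0.37 for the arms of miR-193a, between −1.08 and 0.0496 for the arms of miR-193b, and between −0.69 and 0.78 for miR-365-1-5p over miR-365-2-5p.

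In the list of miRNAs that promote brown or beige fat, 0 were lower for P90 versus P1 with upper-quartile factors, 1 was higher and 8 were lower with library totals, and 1 to 2 were lower when a library was left out. In the restraining list, 10 were higher with upper-quartile factors, 2 were higher and 9 lower with library totals, and 3 were lower with the GC trend removed.

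Replicate numbers were shared by the ages, but deviations of same-numbered libraries did not correlate in a common direction (r from −0.345 to 0.249, median 0.0327, 7 of 18 pairs over 0.1), so the numbers were not taken as pairs. The replicate block ended the P5 versus P1 calls of miR-365-3p (0.55, edgeR Padj 0.0642) and miR-455-5p (−0.94, Padj 0.0712). It changed no other call among the 6 members.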
